A study of Homo sapiens with 18 samples.

Results

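The genes described here are 49 human genes taken as putting methyl groups on histone lysines or removing them. They were listed by symbol, 19 as demethylases and 30 as methyltransferases or their obligate subunits, and matched by symbol to Ensembl identifiers, which found all 49 among the 63677 genes of the count table. Of these, 48 passed the filter on low counts (over 5 counts in at least 10 of 18 libraries), as did 15576 genes in all. The exception was KMT2B, an H3K4 methyltransferase, with 1 read in total under its identifier, so its level was not measured.

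RNA-seq was made from NCI-H1299, a human lung cancer cell line, in 6 groups of 3 libraries. Cells of 4 groups were transiently transfected with a plasmid for TBX2, TBX3, TBX4 or TBX5, T-box transcription factors of 1 subfamily. The TBX2 and TBX4 plasmids carried Flag-tagged human genes, the TBX3 plasmid an HA-tagged human gene and the TBX5 plasmid an HA-tagged mouse gene. The EV group is labelled as empty vector, and the Ctl group is labelled only as control, with no treatment stated. All cells were of passage 12 to 14. Since a lipid transfection reaches part of a culture, each library mixes transfected and untransfected cells, and fewer responding cells cannot be told apart from a smaller response per cell. The labels do not say whether the libraries of a group came from separate cultures, so p-values measure the spread between libraries, which may be technical.

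The libraries held 7365221 to 11743179 counts. A gene without a symbol took 10.71% of them in the lowest library and 53.48% in the highest, the latter with TBX5, so levels are given as CPM after TMM scaling, which sets the bulk of genes equal between libraries. Each transfected gene was at 27704 (TBX2), 135416 (TBX3), 85197 (TBX4) and 1161 (TBX5, a mouse sequence counted on the human gene) counts or more in its own libraries and at no more than 56, 34, 1 and 0 counts in the controls. The title of 1 library, used as TBX4 replicate c, has the number shared by the TBX4 libraries but names TBX5. It held 85197 TBX4 counts and 1 TBX5 count, and the calls without it are given with the TBX4 results. Of the markers examined, VIM (689 to 967 CPM), CDH2, KRT8 and KRT18 were expressed. The lung markers NKX2-1, NAPSA, SFTPB and SFTPC and the epithelial markers EPCAM and CDH1 had at most 10 counts in any library. KRT7, also a lung marker here, had at most 28 counts and at most 2.81 CPM. Markers of blood, macrophage and fibroblast cells had at most 6 counts.

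Histone methylation works by position. H3K4 methylation marks active promoters and enhancers, H3K36 methylation lies over transcribed gene bodies, and H3K9 and H3K27 methylation go with silent chromatin, read by HP1 proteins and by Polycomb complexes respectively. Methyltransferases draw their methyl group from S-adenosylmethionine. Demethylases are either flavin-dependent amine oxidases, as KDM1A and KDM1B, or JmjC-domain oxygenases that use iron and 2-oxoglutarate, as most of the others here.

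Promoter windows are shown for the 3 genes that rose with every transfected factor (KDM6B, with both of its annotated starts, KDM7A and KDM4A) and for the 2 members that hold a T-box core sequence (SETD2 and NSD1, shown after their values were seen). Each runs from 250 bases before to 50 bases after a RefSeq gene start on GRCh38.p14, 5′ to 3′ on the gene's own strand, with matches to the T-box core GGTGTGA in capitals.
KDM6B upstream start, chr17:7833967-7834266, + strand: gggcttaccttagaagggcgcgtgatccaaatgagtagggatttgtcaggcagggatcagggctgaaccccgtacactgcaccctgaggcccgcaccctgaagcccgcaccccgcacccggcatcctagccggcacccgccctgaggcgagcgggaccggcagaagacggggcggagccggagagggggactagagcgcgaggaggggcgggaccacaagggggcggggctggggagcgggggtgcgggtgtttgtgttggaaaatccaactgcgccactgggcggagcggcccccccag
KDM6B downstream start, chr17:7839667-7839966, + strand: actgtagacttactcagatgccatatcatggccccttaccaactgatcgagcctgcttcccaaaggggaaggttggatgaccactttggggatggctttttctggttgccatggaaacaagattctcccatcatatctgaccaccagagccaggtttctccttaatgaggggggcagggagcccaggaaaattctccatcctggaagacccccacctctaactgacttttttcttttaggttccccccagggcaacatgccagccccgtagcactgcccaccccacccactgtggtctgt
KDM7A, chr7:140176934-140177233, - strand: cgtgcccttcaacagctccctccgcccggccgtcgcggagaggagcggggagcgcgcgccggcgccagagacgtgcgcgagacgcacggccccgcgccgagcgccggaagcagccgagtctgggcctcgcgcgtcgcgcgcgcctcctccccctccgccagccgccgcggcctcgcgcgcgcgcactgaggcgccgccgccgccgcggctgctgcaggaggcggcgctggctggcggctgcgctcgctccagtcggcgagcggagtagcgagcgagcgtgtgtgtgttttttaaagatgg
KDM4A, chr1:43649899-43650198, + strand: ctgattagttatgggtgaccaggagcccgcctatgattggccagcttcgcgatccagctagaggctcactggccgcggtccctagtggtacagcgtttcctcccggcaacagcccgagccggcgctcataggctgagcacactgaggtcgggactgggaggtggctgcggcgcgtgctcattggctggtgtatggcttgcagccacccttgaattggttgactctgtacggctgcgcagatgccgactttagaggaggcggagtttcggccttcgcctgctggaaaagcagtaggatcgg
SETD2, chr3:47164064-47164363, - strand: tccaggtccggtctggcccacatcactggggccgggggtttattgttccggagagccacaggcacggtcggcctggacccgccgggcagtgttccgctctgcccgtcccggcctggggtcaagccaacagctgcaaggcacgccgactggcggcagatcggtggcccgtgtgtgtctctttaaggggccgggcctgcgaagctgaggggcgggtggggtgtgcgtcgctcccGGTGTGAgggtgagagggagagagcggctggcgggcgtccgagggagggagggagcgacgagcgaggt
NSD1, chr5:177133523-177133822, + strand: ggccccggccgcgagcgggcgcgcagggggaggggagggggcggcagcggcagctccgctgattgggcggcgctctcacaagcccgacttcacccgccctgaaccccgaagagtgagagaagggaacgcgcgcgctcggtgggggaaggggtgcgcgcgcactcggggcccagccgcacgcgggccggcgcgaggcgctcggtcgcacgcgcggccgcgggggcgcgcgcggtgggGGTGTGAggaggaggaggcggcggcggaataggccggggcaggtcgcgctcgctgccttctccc
In these windows neither the T-box element AGGTGTGA nor its core GGTGTGA, the cAMP response element TGACGTCA or the serum response core (CArG box) occurred on either strand for KDM6B, KDM7A or KDM4A. The core was found in SETD2 and NSD1 alone among the 45 members with a window (66 windows), and in 3.45% of all 35116 windows. The longer element, which contains the core, was found in no member window and in 0.980% of all windows. The cAMP response element was found in windows of PHF8 and SUV39H2 (1.85% of all windows), and the CArG box in those of NSD1 and SMYD3 (1.29%). A match of letters is a description and shows no binding.

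Levels per length set the starting point. In the 6 control libraries, NSD2, an H3K36 dimethyltransferase, was the most abundant of the 48 members at 51.6 ± 2.39 CPM per kb of transcript (SD, n = 6). KDM1A, the LSD1 demethylase, followed with 35.1 ± 0.898 CPM per kb (SD, n = 6) and EZH2, the Polycomb H3K27 methyltransferase, with 24.0 ± 1.04 CPM per kb (SD, n = 6). At the other end lay KDM7A with 0.466 ± 0.0825 CPM per kb (SD, n = 6), and KDM6B stood at 1.07 ± 0.230 CPM per kb (SD, n = 6). The members with the largest rises below were thus among the least abundant. Group means of a member spanned 1.22-fold at the median of the 48, and over 1.5-fold for 7 of them.

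The first question was which of these genes changed in each transfected group. With TBX2, 12 members were higher than in the 6 controls and 9 lower by edgeR's quasi-likelihood test (Benjamini-Hochberg adjusted p below 0.1), against 17.0% of all tested genes called higher and 15.6% called lower. With TBX3, 18 members were higher and 0 lower, against 8.47% and 6.40% of all genes. With TBX4 4 were higher and 4 lower (6.97% and 6.07% of all genes), and with TBX5 6 were higher and 4 lower (6.55% and 6.12% of all genes). Of the 48 members, 29 were called in at least 1 comparison and 19 in none. The matching shares of all tested genes were not counted, so these numbers do not show that the members differ from other genes.

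The demethylases and the methyltransferases divided these calls unequally. Of 19 demethylases, the number that rose was 8 (42.1%) for TBX2, 10 (52.6%) for TBX3, 4 (21.1%) for TBX4 and 6 (31.6%) for TBX5. Falls among them were limited to KDM1A and KDM2B, both with TBX2. Demethylases called higher in all 4 comparisons numbered 3 (KDM6B, KDM7A and KDM4A), against 1.21% of all tested genes. The paper had already reported these 3 genes as raised by all 4 factors, from these same libraries. Their number is thus a description and no independent result. Of 29 methyltransferases, 4 (13.8%) rose with TBX2 and 8 (27.6%) with TBX3, and none rose with TBX4 or TBX5 (0 at an unadjusted p below 0.05 with TBX4 and 0 with TBX5 in edgeR, and 0 with each in DESeq2). Falls numbered 7 (24.1%) with TBX2, 0 with TBX3 (0 at an unadjusted p below 0.05 and 0 in DESeq2), 4 (13.8%) with TBX4 and 4 (13.8%) with TBX5. Of all tested genes, 17.0%, 8.47%, 6.97% and 6.55% were called higher with TBX2 to TBX5, and 15.6%, 6.40%, 6.07% and 6.12% lower. With TBX2, methyltransferase rises and demethylase falls (10.5%) were below these shares. At such shares few of 29 genes would be called, so the 0 rises with TBX4 and TBX5 do not set the methyltransferases apart. The median log2 fold change of the demethylases was 0.08, 0.17, 0.04 and 0.07 with TBX2 to TBX5, that of the methyltransferases was -0.07, 0.06, -0.07 and -0.03, and that of all tested genes lay between -0.01 and 0.00. The 4 comparisons share their 6 control libraries, and the difference between the 2 classes was not tested. The classes follow the list of symbols. KMT2E, described below as without known methyltransferase activity, is among the methyltransferase rises with TBX3. JMJD6, described below by its lysyl hydroxylase activity, is among the demethylase rises with TBX2 and TBX3. Without TBX4 replicate c, whose title names TBX5, the calls with TBX4 were 4 higher and 2 lower. Without TBX5 replicate c the calls with TBX5 were 2 higher and 0 lower. The part of that library in these calls was not tested further. The most counted gene took 52.68% of counts in it and 53.48% in TBX5 replicate b, without which 2 were called lower.

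**Figure D1:**
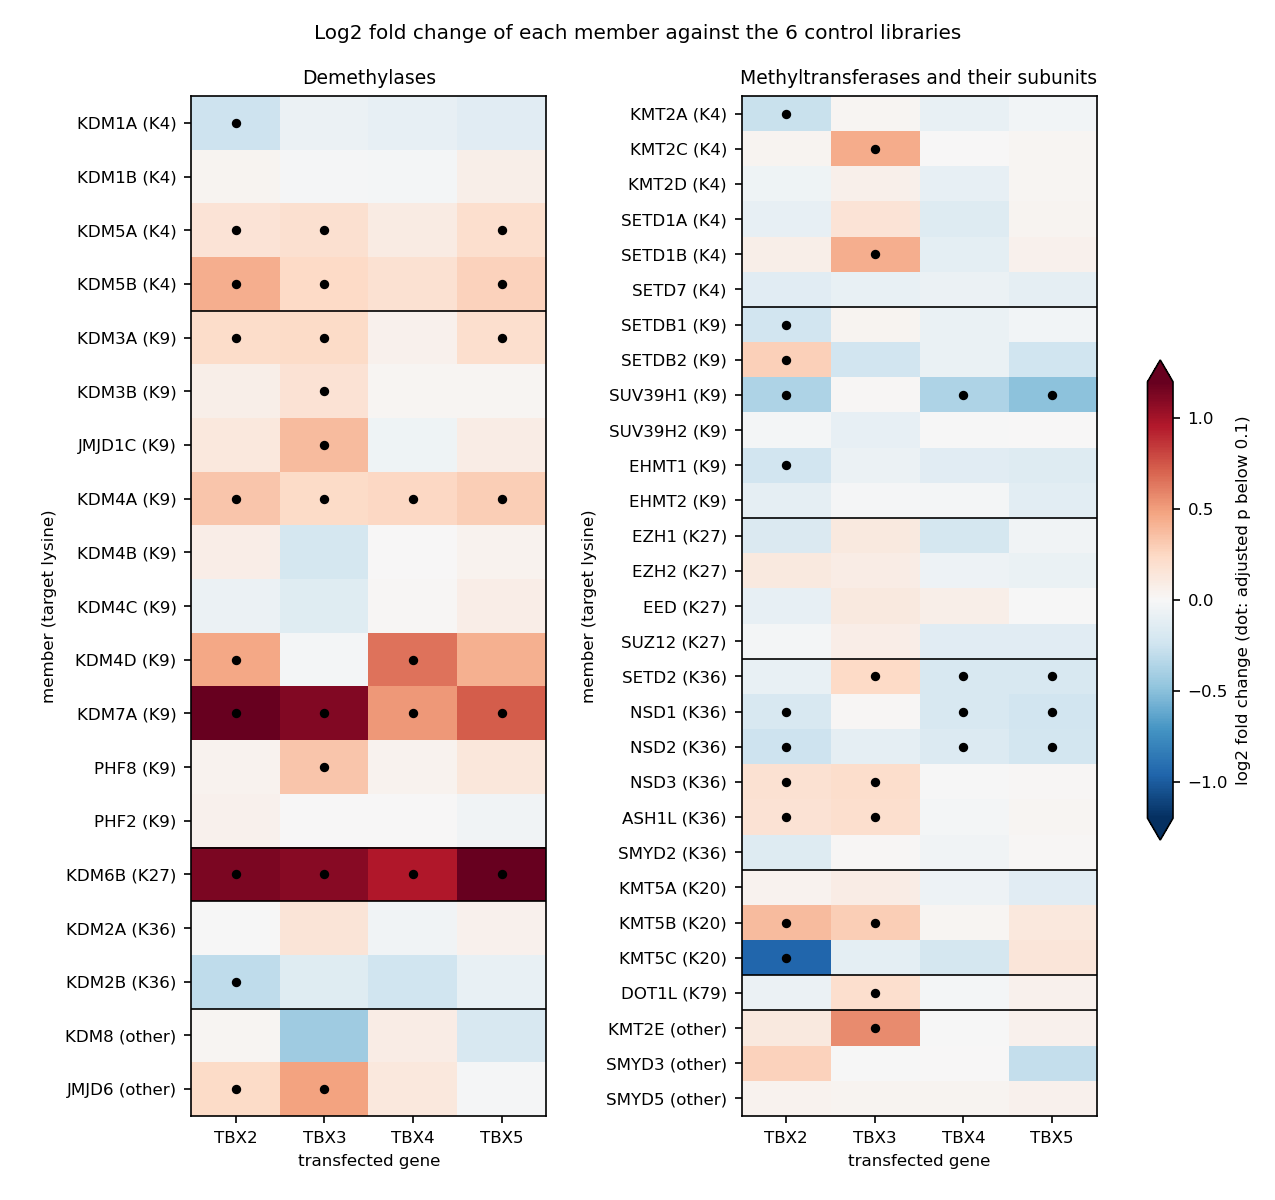
Log2 fold changes (colour, saturated beyond 1.2 in either direction) of the 19 demethylases and 29 methyltransferases tested, in rows ordered by target lysine, against the 6 control libraries for each transfected gene, in columns. A dot marks an adjusted p below 0.1. KDM6B, KDM7A and KDM4A carry a dot in all 4 columns, and the only methyltransferase dots with TBX4 and TBX5 are falls.

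For H3K27, the demethylase KDM6B rose in all 4 comparisons. Of the methyltransferase complex, 0 of the 4 tested members among the 49 genes were called against the controls. Other subunits of that complex, outside the 49 genes, were called and are given below. KDM6B (JMJD3, chromosome 17 from 7737535 to 7758114, GRCh37), which removes H3K27 di- and trimethylation, had 4.94 CPM in the lowest control library, a median of 7.78 and 8.65 in the highest. It had 18.6, 11.8 and 16.7 CPM in the 3 TBX2 libraries, 15.2, 18.4 and 12.8 with TBX3, 10.3, 16.1 and 14.9 with TBX4, and 19.1, 16.2 and 20.04 with TBX5. Every TBX library lay above every control library. The log2 fold changes were 1.13 ± 0.16, 1.09 ± 0.14, 0.96 ± 0.14 and 1.39 ± 0.14 (SE), with adjusted p of 1.03e-05, 2.01e-05, 8.45e-05 and 1.05e-06 in edgeR. All 4 calls held under each alternative run, library totals included. KDM7A, which also acts on H3K27, is described below with H3K9. KDM6A, another H3K27 demethylase and not among the 49 genes, differed from the pattern of KDM6B. It rose with TBX3 (0.39 ± 0.07, edgeR adjusted p = 0.00149), and its changes with TBX4 and TBX5 were -0.12 and -0.14 (SE 0.07 and 0.08, edgeR adjusted p = 0.361 and 0.331), with -0.001 for TBX2 (edgeR adjusted p = 0.994).

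The writer of that mark, Polycomb repressive complex 2, was represented by 4 members, the catalytic EZH1 and EZH2 and the subunits EED and SUZ12. EdgeR called 0 of them against the controls in any comparison, with 1 at an unadjusted p below 0.05 (EZH1 with TBX4) and 0 in DESeq2. Of all tested genes, 17.0% were called higher and 15.6% lower with TBX2, and fewer with the other factors. At such shares 0 of 4 does not set these members apart from other genes. The histone-binding subunits RBBP4 and RBBP7, not among the 49 genes, did fall with TBX2, by 0.24 and 0.30 (SE 0.08 and 0.06, edgeR adjusted p = 0.0254 and 0.000702), and RBBP7 fell with TBX4 by 0.18 (SE 0.05, edgeR adjusted p = 0.034). EZH2 ran from 60.2 to 66.6 CPM in the controls with a median of 64.5, and had 74.1, 64.0 and 69.4 CPM with TBX2, 67.2, 69.2 and 67.1 with TBX3, 62.0, 62.5 and 58.9 with TBX4, and 62.5, 57.8 and 59.9 with TBX5. The TBX3 libraries lay just above the control range, while the other groups overlapped it. Its log2 fold changes of 0.12, 0.09, -0.06 and -0.08 had SEs of 0.06 each, and edgeR's adjusted p were 0.188 to 0.585. EZH2 with TBX2 did exceed EZH2 with TBX4 (log2 difference 0.17 ± 0.07, edgeR adjusted p = 0.0956) and with TBX5 (0.20 ± 0.07, edgeR adjusted p = 0.0743). EZH1 had 13.4 to 15.7 CPM in the controls, 12.0, 13.6 and 12.6 with TBX2, 18.2, 15.3 and 14.2 with TBX3, 13.2, 12.5 and 11.9 with TBX4, and 13.5, 13.4 and 15.4 with TBX5. EZH1 with TBX3 exceeded EZH1 with TBX4 (0.32 ± 0.11, edgeR adjusted p = 0.0726), the only pair of factors between which it was called.

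**Figure D2:**
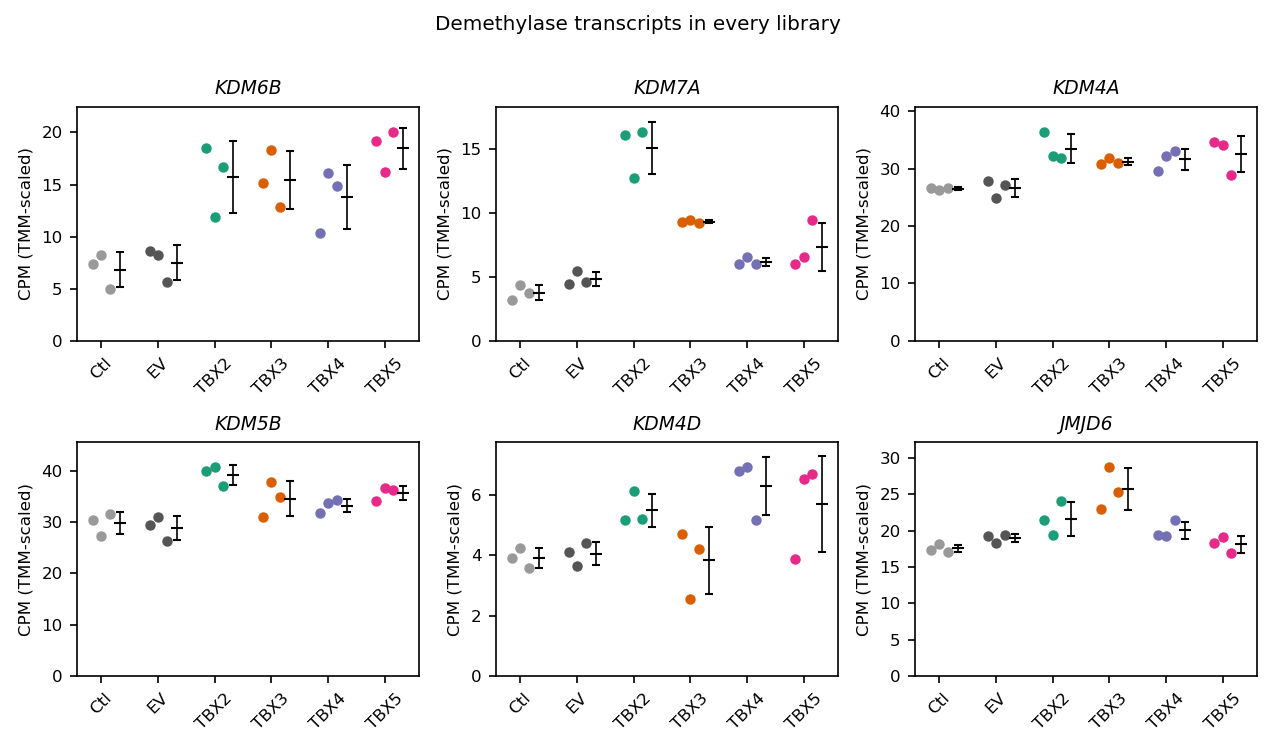
CPM of 6 demethylases in each of the 18 libraries by group, with group means and SD (n = 3) as black bars. For KDM6B, KDM7A and KDM4A all 12 TBX libraries sit above all 6 control libraries, and KDM7A with TBX2, at 12.7 to 16.4 CPM, stands above the other groups.

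H3K9 demethylases made up the largest group, with 10 members. KDM7A (chromosome 7 from 139784546 to 139876783), a JmjC enzyme acting on H3K9 and H3K27, had 3.23 to 5.46 CPM in the controls, with a median of 4.39. It reached 16.1, 12.7 and 16.4 CPM with TBX2, 9.28, 9.48 and 9.25 with TBX3, 5.99, 6.52 and 5.999 with TBX4, and 5.97, 6.53 and 9.46 with TBX5. All 12 TBX libraries were above the controls, by little with TBX4. The log2 fold changes were 1.79 ± 0.14, 1.11 ± 0.14, 0.52 ± 0.14 and 0.73 ± 0.18 (SE), with edgeR adjusted p of 1.3e-09, 7e-06, 0.0223 and 0.0141. The call with TBX4 was lost against EV alone (0.36, edgeR adjusted p = 0.183) and without TBX4 replicate b (0.48, edgeR adjusted p = 0.11). The call with TBX5 was lost without TBX5 replicate c (0.52, edgeR adjusted p = 0.148) and by library totals (0.40, edgeR adjusted p = 0.368). The counts behind these levels were 33 to 141 per library.

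KDM4A (chromosome 1 from 44115820 to 44171189), which demethylates H3K9 and H3K36, changed less and was called in every comparison. Its control libraries ran from 24.8 to 27.9 CPM with a median of 26.6. With TBX2 they were 36.4, 32.2 and 31.9 CPM, with TBX3 30.8, 31.9 and 31.0, with TBX4 29.6, 32.2 and 33.1, and with TBX5 34.6, 34.2 and 28.9. No TBX library fell within the control range. The log2 fold changes were 0.34 ± 0.07, 0.23 ± 0.07, 0.24 ± 0.07 and 0.30 ± 0.08 (SE), with edgeR adjusted p of 0.00124, 0.0281, 0.0182 and 0.0166. The call with TBX5 was lost without TBX5 replicate a (0.25, edgeR adjusted p = 0.111), and that with TBX3 without the filter on low counts (0.21, edgeR adjusted p = 0.17). By library totals the calls with TBX2 and TBX3 were lost (edgeR adjusted p = 0.362 and 0.9997) and the change with TBX5 was -0.0019. An antisense gene, KDM4A-AS1, overlaps 9.12% of its exon bases, and the counting did not separate strands.

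KDM4D, a relative that acts on H3K9 only, had 3.56 to 4.39 CPM in the controls, with a median of 4.00. It had 5.15, 6.12 and 5.18 CPM with TBX2, 4.70, 2.56 and 4.21 with TBX3, 6.79, 6.91 and 5.17 with TBX4, and 3.87, 6.53 and 6.68 with TBX5. The TBX2 and TBX4 libraries were above all controls, and the TBX3 and TBX5 libraries overlapped them. The rise was 0.47 ± 0.15 with TBX2 (edgeR adjusted p = 0.0249, and 0.172 without TBX2 replicate b) and 0.65 ± 0.14 with TBX4 (edgeR adjusted p = 0.003). KDM3A, an H3K9 mono- and dimethyl demethylase, rose with TBX2, TBX3 and TBX5 by 0.22, 0.23 and 0.20 (SE 0.06 each). The last was lost under 7 of 22 alternatives, among them leaving out TBX5 replicate a or c (edgeR adjusted p = 0.139 and 0.175), and by library totals it was -0.11. KDM3B, JMJD1C and PHF8 rose with TBX3, by 0.17 ± 0.05, 0.38 ± 0.06 and 0.33 ± 0.07, and were not called in the other 3 comparisons. Between factors, JMJD1C was higher with TBX3 than with each other factor and PHF8 than with TBX2 and TBX4 (against TBX5, edgeR adjusted p = 0.221), whereas KDM3B was called between no pair. The KDM3B call was lost under 6 of 22 alternatives, among them leaving out TBX3 replicate a or c (edgeR adjusted p = 0.139 and 0.123). JMJD1C, the third member of the KDM3 family, had 122, 128 and 116 CPM with TBX3 against 86.0 to 101 in the controls. KDM4B, KDM4C and PHF2 were called in no comparison.

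Among the 6 H3K9 methyltransferases the calls were falls, SETDB2 with TBX2 excepted. SUV39H1 (chromosome X from 48553945 to 48567407), which trimethylates H3K9 in heterochromatin, had 9.57 to 12.1 CPM in the controls with a median of 11.4. It had 8.13, 8.93 and 9.06 CPM with TBX2, 12.4, 11.1 and 10.7 with TBX3, 8.30, 9.86 and 7.84 with TBX4, and 9.51, 6.53 and 7.05 with TBX5. The TBX2 and TBX5 libraries were below all controls, 1 TBX4 library was within the control range and the TBX3 libraries overlapped it. The log2 fold changes for TBX2 to TBX5 were -0.37 ± 0.11, 0.01 ± 0.11, -0.37 ± 0.11 and -0.49 ± 0.14 (SE), and edgeR's adjusted p were 0.0198, 0.973, 0.0298 and 0.0259. Against EV alone these 3 falls did not pass (edgeR adjusted p of 0.119, 0.151 and 0.122), and 21.2% of its exon bases overlap another gene. The falls with TBX4 and TBX5 were also lost without TBX4 replicate a or c (edgeR adjusted p of 0.136 and 0.149) and without TBX5 replicate b or c (0.137 and 0.135).

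SETDB1 and EHMT1, the KAP1-recruited trimethylase and the partner of G9a, each fell by 0.23 with TBX2 (SE 0.08 and 0.07, edgeR adjusted p = 0.0311 and 0.0138). The SETDB1 call was lost without TBX2 replicate c (edgeR adjusted p = 0.185) and against EV alone (0.145), and 12.9% of its exon bases overlap another gene. SETDB2 had 8.13 to 9.58 CPM in the controls with a median of 8.61, 8.59, 11.1 and 12.5 with TBX2, 7.97, 8.27 and 6.59 with TBX3, 8.94, 8.07 and 7.57 with TBX4, and 7.30, 6.72 and 8.16 with TBX5. TBX2 replicate a was within the control range. Its rise with TBX2, 0.29 ± 0.12 (edgeR adjusted p = 0.0824), was lost under 13 of 22 alternatives, the replicate block among them (edgeR adjusted p = 0.103), so it was not stable to the processing. SUV39H2 and EHMT2 were called in no comparison.

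For H3K4, the demethylases KDM5A and KDM5B rose with TBX2, TBX3 and TBX5, and the methyltransferase calls were with TBX2 or TBX3. KDM5B (chromosome 1 from 202693623 to 202777615), which removes H3K4 di- and trimethylation, had 26.3 to 31.5 CPM in the controls, with a median of 29.9. It had 40.1, 40.7 and 37.1 CPM with TBX2, 31.1, 37.9 and 34.8 with TBX3, 31.9, 33.7 and 34.2 with TBX4, and 34.1, 36.6 and 36.4 with TBX5. Only 1 TBX library, with TBX3, lay within the control range. The log2 fold changes were 0.43 ± 0.07, 0.24 ± 0.08, 0.18 ± 0.07 and 0.28 ± 0.08 (SE), with edgeR adjusted p of 0.000126, 0.0419, 0.102 and 0.029. Without TBX3 replicate b or c the call with TBX3 was lost (edgeR adjusted p = 0.211 and 0.146), as it was with Ctl alone (0.160) and without the filter (0.108). The same held for the call with TBX5 without TBX5 replicate b or c (edgeR adjusted p = 0.101 and 0.108) or with Ctl alone (0.115). By library totals no call of KDM5B passed, and the change with TBX5 was -0.03. Its relative KDM5A rose with TBX2, TBX3 and TBX5 by 0.16 to 0.20 (SE 0.05 to 0.06), with that for TBX2 lost under 8 of 22 alternatives and that for TBX5 at -0.11 by library totals. KDM5A with TBX4 was not called (0.10 ± 0.05, edgeR adjusted p = 0.286). KDM1A, the core of the CoREST complex, fell with TBX2 by 0.25 (SE 0.06, edgeR adjusted p = 0.00235), from 108 ± 2.77 CPM in the controls (SD, n = 6) to 91.1 ± 3.62 (SD, n = 3). The TBX4 and TBX5 libraries were also below every control, without a call (-0.10 ± 0.05 and -0.14 ± 0.06, edgeR adjusted p = 0.26 and 0.139). KDM1A with TBX2 was lower than with TBX3 (edgeR adjusted p = 0.049) and was not called against TBX4 or TBX5 (0.111 and 0.309).

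Of the 6 H3K4 methyltransferases tested, KMT2C (MLL3, chromosome 7 from 151832007 to 152133729), which monomethylates H3K4 at enhancers, had 115 to 127 CPM in the controls with a median of 121. With TBX3 it had 157, 177 and 162 CPM, with TBX2 134, 116 and 123, with TBX4 118, 125 and 123, and with TBX5 115, 130 and 125. The TBX3 libraries stood above all 15 others. The rise with TBX3 was 0.45 ± 0.05 (SE, edgeR adjusted p = 6.85e-06), whereas the other 3 changes were 0.00 to 0.04. KMT2C has near-identical partial copies elsewhere in the genome, so its counts are uncertain to that extent. SETD1B rose with TBX3 by 0.44 ± 0.10 (edgeR adjusted p = 0.00688) and was not called between TBX3 and TBX5 (edgeR adjusted p = 0.112), and KMT2A (MLL) fell with TBX2 by 0.27 (SE 0.06, edgeR adjusted p = 0.00207). KMT2E (MLL5), a member of the same family without known methyltransferase activity, had 58.2 to 73.8 CPM in the controls with a median of 68.6 and 99.1, 118 and 84.6 with TBX3. It had 70.0, 72.7 and 76.9 CPM with TBX2, 64.8, 67.7 and 69.6 with TBX4, and 68.7, 65.9 and 74.6 with TBX5, close to or within the control range. The rise with TBX3 was 0.56 ± 0.08 (edgeR adjusted p = 5.13e-05).

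H3K36 methyltransferases differed among themselves and between factors. NSD1 and NSD2, which dimethylate H3K36, fell with TBX2, TBX4 and TBX5. NSD1 had 108 to 121 CPM in the controls, 100.3, 102 and 105 with TBX2, 116, 119 and 118 with TBX3, 102, 100.4 and 104 with TBX4, and 105, 103 and 91.1 with TBX5. The 9 libraries of the 3 factors were below every control. The falls were small, -0.19 ± 0.06, -0.19 ± 0.05 and -0.23 ± 0.06 (SE, edgeR adjusted p = 0.0186, 0.0242 and 0.0238). All 3 were lost with Ctl alone (edgeR adjusted p = 0.158, 0.152 and 0.176), that with TBX4 without TBX4 replicate b (0.123) and that with TBX5 without TBX5 replicate c (0.193). NSD2 fell by 0.25 with TBX2, 0.16 with TBX4 and 0.22 with TBX5 (SE 0.06, 0.05 and 0.06), and with TBX3 all 3 libraries were below the controls without a call (-0.11 ± 0.06, edgeR adjusted p = 0.243). The NSD2 call with TBX4 was lost under 10 of 22 alternatives, among them leaving out any 1 TBX4 library (edgeR adjusted p = 0.27, 0.147 and 0.119) and the replicate block (0.120). That with TBX5 was lost against EV alone (0.146) and without TBX5 replicate b or c (0.178 and 0.125). NSD3, the third of that family, moved the other way, by 0.18 ± 0.06 with TBX2 and 0.21 ± 0.06 with TBX3.

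SETD2, which trimethylates H3K36 behind RNA polymerase II, was the only member called in both directions. It had 74.2 to 81.4 CPM in the controls with a median of 79.5. It rose to 93.4, 97.2 and 89.8 CPM with TBX3, and was at 67.6, 69.1 and 71.2 with TBX4 and 68.4, 71.2 and 67.9 with TBX5, while TBX2 libraries had 73.8, 68.0 and 81.6. The TBX3 libraries were above every control and the TBX4 and TBX5 libraries below. The log2 fold changes were 0.24 ± 0.05 (edgeR adjusted p = 0.00558), -0.19 ± 0.05 (0.0258) and -0.19 ± 0.06 (0.0475). The fall with TBX4 was lost without TBX4 replicate a or b (edgeR adjusted p = 0.132 and 0.1003), and that with TBX5 without TBX5 replicate a or c (0.129 and 0.168) and with either control group alone (0.105 and 0.149). By library totals NSD1, NSD2 and SETD2 changed by 0.07, 0.10 and 0.07 with TBX4, none called, so the direction of their falls with TBX4 rests on the scaling. ASH1L rose with TBX2 and TBX3 by 0.17 ± 0.06 and 0.20 ± 0.05, calls lost under 6 and 4 of 22 alternatives. The H3K36 demethylase KDM2A was not called and KDM2B fell with TBX2 by 0.31 (SE 0.09, edgeR adjusted p = 0.0104).

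**Figure D3:**
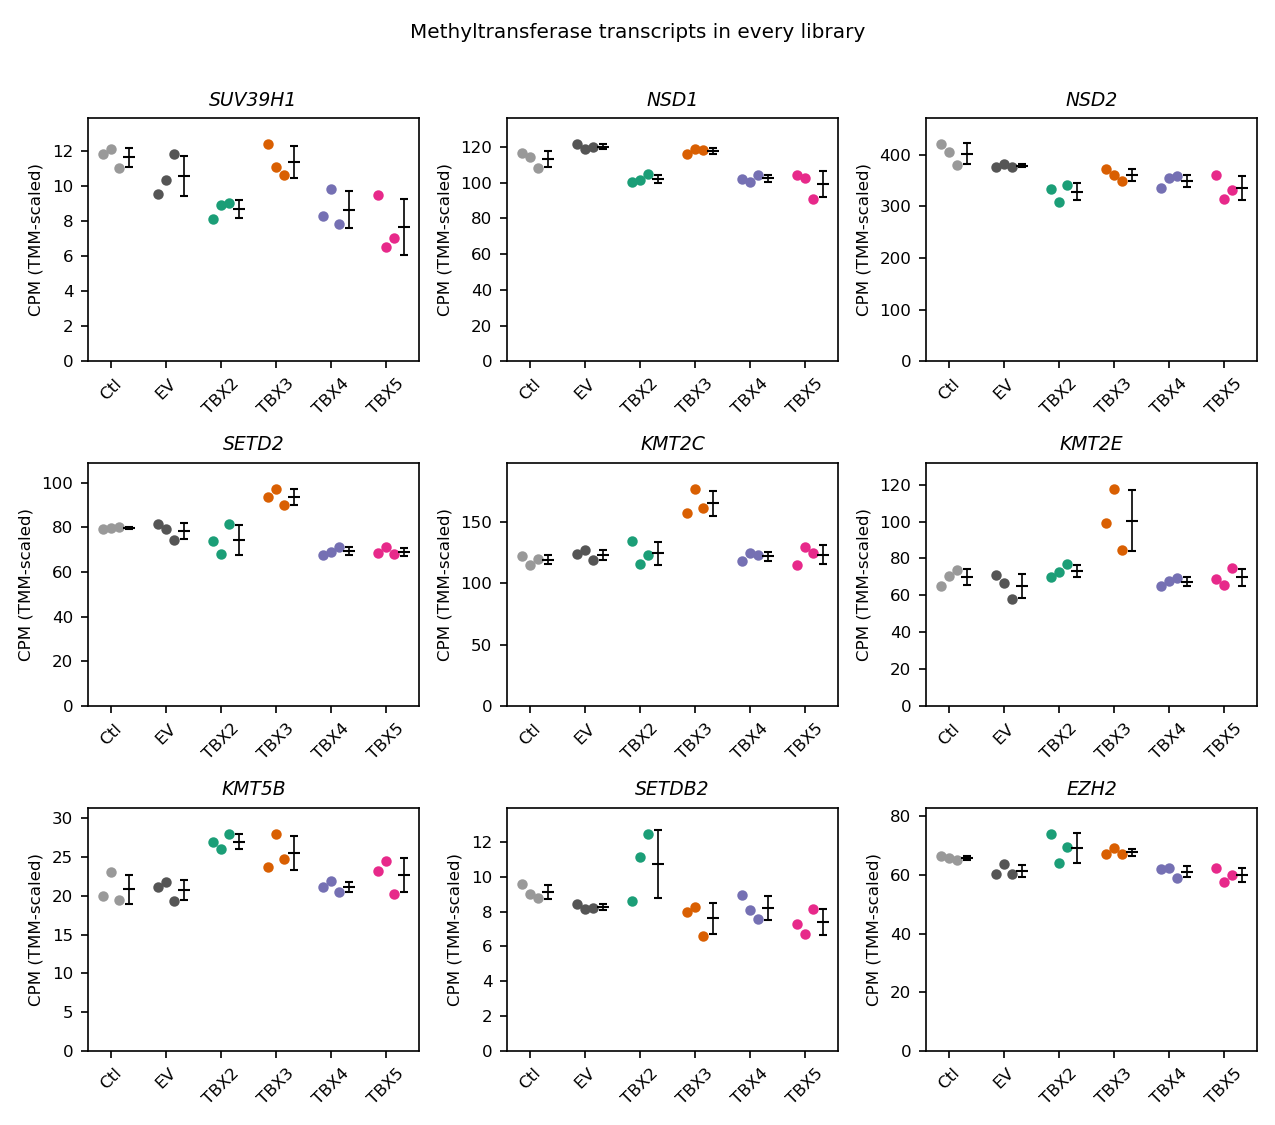
CPM of 9 methyltransferases in each of the 18 libraries by group, with group means and SD (n = 3) as black bars. SETD2, KMT2C and KMT2E are highest in the TBX3 libraries, and NSD1 is below every control in the TBX2, TBX4 and TBX5 libraries.

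Outside these lysines, KMT5B, 1 of 2 enzymes that di- and trimethylate H4K20, had 19.3 to 23.0 CPM in the controls with a median of 20.6. It had 26.9, 26.1 and 28.0 CPM with TBX2, 23.8, 28.0 and 24.8 with TBX3, 21.1, 21.9 and 20.5 with TBX4, and 23.2, 24.5 and 20.2 with TBX5. The TBX2 and TBX3 libraries were above every control, the others overlapped them. The rises were 0.38 ± 0.08 with TBX2 (edgeR adjusted p = 0.0011) and 0.29 ± 0.08 with TBX3 (edgeR adjusted p = 0.0203, and 0.122 without TBX3 replicate b). KMT5C, the other enzyme, had 1.29 to 2.505 CPM in the controls and 0.572, 1.30 and 0.647 with TBX2, which overlapped them. It had 1.44, 2.11 and 1.40 CPM with TBX3, 1.68, 1.55 and 1.2 with TBX4, and 1.77, 1.58 and 2.41 with TBX5. Its fall of -0.95 ± 0.34 with TBX2 (edgeR adjusted p = 0.0403) rests on 4 to 22 counts per library and was lost without TBX2 replicate a or c (edgeR adjusted p = 0.209 and 0.128) and with Ctl alone (0.154), and 18.6% of its exon bases overlap another gene. DOT1L, the H3K79 methyltransferase, rose with TBX3 by 0.21 ± 0.07 (edgeR adjusted p = 0.0717), a call lost under 13 of 22 alternatives.

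JMJD6, a JmjC oxygenase with lysyl hydroxylase activity, had 17.1 to 19.4 CPM in the controls with a median of 18.2. It had 21.4, 19.5 and 24.1 CPM with TBX2, 23.0, 28.7 and 25.4 with TBX3, 19.4, 19.3 and 21.4 with TBX4, and 18.4, 19.2 and 16.9 with TBX5. All TBX3 libraries were well above the controls and the TBX2 libraries were above by little. The rise was 0.48 ± 0.08 with TBX3 (edgeR adjusted p = 0.000307) and 0.23 ± 0.09 with TBX2 (edgeR adjusted p = 0.0537), the latter lost under 7 of 22 alternatives, among them DESeq2 (adjusted p = 0.123). KDM8, KMT5A, SMYD2, SMYD3 and SMYD5 were called in no comparison.

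To set demethylases against methyltransferases, the CPM per kb of each class were summed in every library and divided. Each member was counted under its main target lysine only. KDM4A, KDM4B and KDM4C, which also act on H3K36, and KDM7A, which also acts on H3K27, thus entered the H3K9 sum alone. KDM2B, also listed for H3K4, entered that of H3K36. For H3K9, 10 demethylases over 6 methyltransferases gave ratios of 1.47 to 1.60 in the 6 control libraries. They were 1.87, 1.92 and 2.06 with TBX2, 1.76, 1.85 and 1.94 with TBX3, 1.69, 1.75 and 1.78 with TBX4, and 1.83, 1.90 and 1.90 with TBX5. Every TBX library lay above every control. The demethylase sum was 65.0 CPM per kb in the controls and 72.8, 75.3, 68.0 and 71.2 with TBX2 to TBX5. The methyltransferase sum was 41.6 CPM per kb in the controls (41.2 in the EV libraries) and 37.3, 40.8, 39.1 and 38.0 with TBX2 to TBX5, so with TBX3 it was close to that of EV. For H3K27, KDM6B over the 4 complex members gave 0.0169 to 0.0288 in the controls and 0.0346 to 0.0714 in the TBX libraries, and the numerator is KDM6B alone. For H3K4 the ratios of every TBX group but TBX5 reached outside the control range of 1.24 to 1.38 while overlapping it, and those of TBX5, all at 1.30, were inside it. For H3K36 the controls ran from 0.109 to 0.126 and each TBX group overlapped them. These sums use genes described above, are led by the abundant ones and were not tested.

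**Figure D4:**
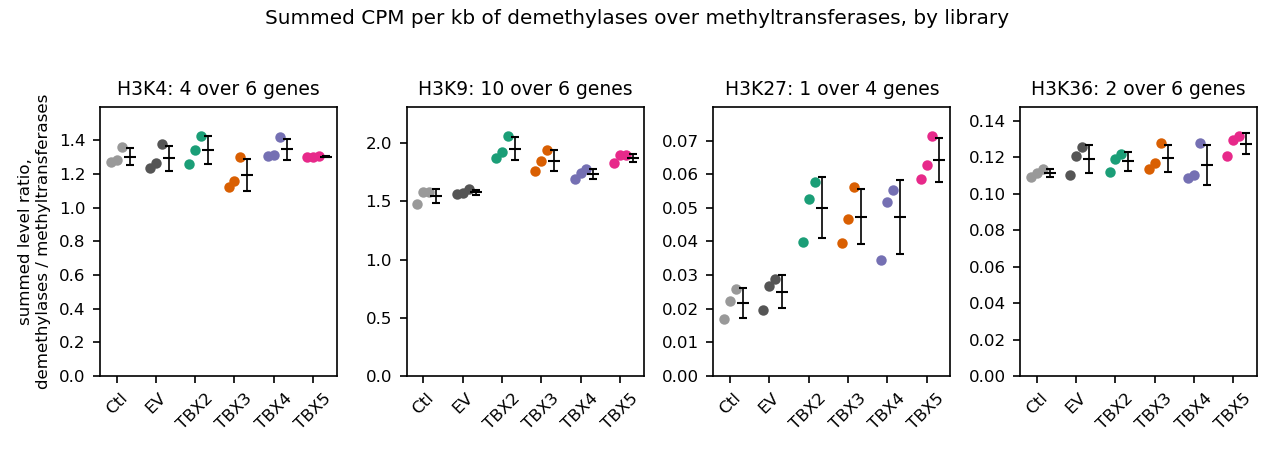
Ratio of the summed CPM per kb of demethylases to that of methyltransferases with the same main target lysine, in each library (points, sorted within a group), with group means and SD (n = 3). Ratios for H3K9 and H3K27 in the 12 TBX libraries are above those of the 6 control libraries, at 1.69 or more against 1.60 or less for H3K9, and for H3K4 and H3K36 the groups overlap.

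The second question was whether the factors differed from each other. In 1 fit of all 18 libraries, 15 of 48 members differed between TBX2 and TBX3 (15.5% of all tested genes), 7 between TBX2 and TBX4 (12.3% of all genes), 5 between TBX2 and TBX5 (12.1%), 15 between TBX3 and TBX4 (9.97%), 7 between TBX3 and TBX5 (7.41%) and 0 between TBX4 and TBX5 (0.539%). Of the 15 between TBX3 and TBX4, 14 were higher with TBX3, as were all 7 between TBX3 and TBX5 and 13 of the 15 between TBX2 and TBX3. KMT2C, KMT2E, SETD2, NSD1, JMJD1C, JMJD6 and SUV39H1 were higher with TBX3 than with each of the other 3 factors. KMT2C differed by 0.41, 0.44 and 0.43 (SE 0.07 each) and SETD2 by 0.33, 0.43 and 0.43 (SE 0.07 each) from TBX2, TBX4 and TBX5. For KMT2C and SETD2 the smallest of these 3 differences had edgeR adjusted p of 0.00012 and 0.00129.

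KDM7A set TBX2 apart. Its level with TBX2 exceeded that with TBX3 by 0.68 ± 0.14, with TBX4 by 1.27 ± 0.14 and with TBX5 by 1.06 ± 0.15 on the log2 scale (edgeR adjusted p = 0.00109, 1.73e-07 and 1.88e-05). KDM7A with TBX3 also exceeded TBX4, by 0.59 ± 0.15 (edgeR adjusted p = 0.0132). KMT2A was lower with TBX2 than with each other factor. KDM6B, in contrast, was not called between any pair of factors.

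**Figure D5:**
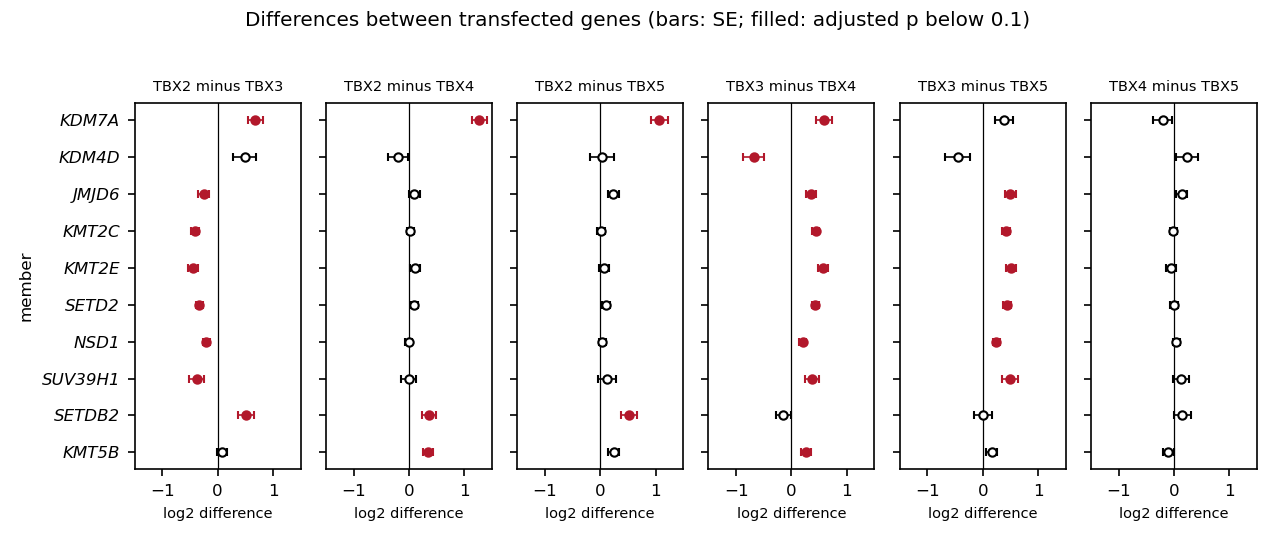
Log2 differences (points, with SE bars) of 10 members between each pair of transfected genes, from 1 fit of 18 libraries, with filled red points for an adjusted p below 0.1. KDM7A differs in the 3 comparisons that hold TBX2 and between TBX3 and TBX4. KMT2C, KMT2E, SETD2 and NSD1 differ in the 3 that hold TBX3, and none is filled between TBX4 and TBX5.

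Between TBX4 and TBX5, edgeR called 0 members, with 2 at an unadjusted p below 0.05 and 0 in DESeq2. The largest difference was that of KDM6B, -0.43 ± 0.18 (TBX4 minus TBX5, edgeR adjusted p = 0.522), an interval of -0.79 to -0.08 at 2 SE. A missing call does not show equal levels. By library totals, which leave the most counted gene in the scaling, 21 members would be called between TBX4 and TBX5.

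The controls themselves were compared last. Between EV and Ctl edgeR called 0 of 48 members (0.282% of all genes called higher and 0.103% lower), with 1 at an unadjusted p below 0.05 and 0 in DESeq2. The differences ran from -0.25 for SETD1A, an H3K4 methyltransferase, to 0.34 for KDM7A. KDM7A had 4.44, 5.46 and 4.58 CPM with EV and 3.23, 4.34 and 3.76 with Ctl, so the EV libraries were above the Ctl libraries without passing the test (0.34 ± 0.18, edgeR adjusted p = 0.58).

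Partner proteins of these enzymes were counted from lists. For comparison, 17.0%, 8.47%, 6.97% and 6.55% of all tested genes were called higher with TBX2 to TBX5 and 15.6%, 6.40%, 6.07% and 6.12% lower. Of 8 tested partners of H3K9 methylation, the number that fell was 4 for TBX2, 1 for TBX3, 3 for TBX4 and 3 for TBX5, and 0 rose (1 at an unadjusted p below 0.05, with TBX3, in edgeR, and 0 in DESeq2). CBX5, the HP1 alpha protein that binds methylated H3K9, fell in all 4 comparisons by 0.25, 0.24, 0.22 and 0.22 (SE 0.06 to 0.07), with edgeR adjusted p of 0.0105, 0.019, 0.027 and 0.0606. CBX1 and CBX3, the other HP1 proteins, fell in 2 comparisons each. Of 11 tested COMPASS subunits, which serve the H3K4 methyltransferases, 1 rose and 5 fell with TBX2, 3 fell with TBX4, and 0 were called with TBX3 or TBX5 (1 and 3 at an unadjusted p below 0.05 in edgeR, and 0 in DESeq2). Of 7 other tested subunits of Polycomb repressive complex 2, 2 rose and 3 fell with TBX2, 2 rose and 1 fell with TBX3, and 1 fell with each of TBX4 and TBX5. Beside RBBP4 and RBBP7, described above, PHF19, a reader of H3K36 methylation, fell with TBX2, TBX3 and TBX5 by 0.31, 0.27 and 0.23 (SE 0.07 each), while AEBP2 and MTF2 rose with TBX2 and TBX3 by 0.23 to 0.28. Of 11 tested subunits of the KDM1A complex, 2 rose and 3 fell with TBX2, 2 rose with TBX3, 1 rose and 1 fell with TBX4 and 1 fell with TBX5, of which the 2 rises with TBX2 and the single calls with TBX4 and TBX5 are near the shares of all genes. Among 11 other tested lysine methylation enzymes, 5 rose with TBX3, KDM6A among them, 2 rose and 1 fell with TBX2, and 0 were called with TBX4 or TBX5 (3 and 4 at an unadjusted p below 0.05 in edgeR, and 0 in DESeq2).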

How the data were processed

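The authors deposited raw read counts per Ensembl gene for all 18 libraries, made from paired-end reads aligned to GRCh37.75 with STAR 2.3.0 and counted with featureCounts at default settings, which do not use strand and leave out reads shared by overlapping genes. Base calling is named as bcl2fastq 1.8.4 in the submitters' processing notes, which also name DESeq2. Library totals ran from 7365221 to 11743179 counts, so 3 counts, taken as the detection floor, equal 0.191 to 0.593 CPM. Floors cover counting error only.

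Genes with over 5 counts in at least 10 of 18 libraries were kept. Each TBX group was compared with the 6 pooled EV and Ctl libraries, EV with Ctl, and each pair of TBX groups within 1 joint fit, by the quasi-likelihood test of edgeR 4.0.16 (R 4.3.3) with TMM scaling and Benjamini-Hochberg adjustment over all 15576 genes, at 0.1. SEs were derived from each log2 fold change and its F statistic. Lengths are those of the Ensembl canonical transcripts (GENCODE, GRCh37), and promoter windows came from RefSeq, GRCh38.p14. Values in every TBX library, with the range of the control libraries, are given for members chosen by rule. They are those called in the same direction in all 4 comparisons, the 5 largest called changes per TBX group and the 3 largest per pair. KDM4A, KDM6B, KDM7A, EZH1 and EZH2 are given as well. Partners named are those called in all 4, or the largest in a list called in 3. Others were named after their values were seen. The members and lists were chosen with earlier results of these data known.

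Alternatives were DESeq2 1.42.0, its size factors, scaling to library totals, a looser filter (none) and a stricter one (a minimum of 10 counts throughout), EV or Ctl alone, a GC offset, a length offset, the replicate letter as a block, 1 fit, an FDR of 0.05 and each library left out. The letters do not pair libraries: deviations of same-letter libraries had a mean correlation of 0.00043 (-0.101 to 0.16), and 6 of 18 libraries were closest to their own letter. The fits were tested on simulated counts with known changes.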

Additional observations from a re-analysis of the deposited data

Results flagged for a closer look

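These differences between the effects of 2 transfected genes passed a test of the difference itself (edgeR, 1 fit of 18 libraries), as the 3 largest called in each pair. KDM7A was higher with TBX2 than with TBX3, TBX4 and TBX5 by 0.68, 1.27 and 1.06 on the log2 scale (adjusted p = 0.00109, 1.73e-07 and 1.88e-05), and higher with TBX3 than with TBX4 by 0.59 (adjusted p = 0.0132). KMT2E differed by -0.45 between TBX2 and TBX3, and by 0.56 and 0.51 between TBX3 and TBX4 or TBX5 (adjusted p = 0.00126, 0.00017 and 0.000783). JMJD6 was 0.49 higher with TBX3 than with TBX5 (adjusted p = 0.00279), and SUV39H1 0.50 higher (adjusted p = 0.046).

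SETDB2 was higher with TBX2 than with TBX3, TBX4 and TBX5 by 0.52, 0.37 and 0.52 (adjusted p = 0.0146, 0.0814 and 0.0293). The difference from TBX3 was lost without TBX3 replicate c (edgeR adjusted p = 0.141). That from TBX5 was lost without TBX2 replicate b or c or TBX5 replicate a (edgeR adjusted p = 0.103, 0.118 and 0.104). KMT5B was 0.35 higher with TBX2 than with TBX4 (adjusted p = 0.013). KDM4D differed by -0.68 between TBX3 and TBX4 (adjusted p = 0.0282), in a gene with 17 to 89 counts per library. KMT5C differed by -1.10 between TBX2 and TBX5 (adjusted p = 0.0772), in a gene with 4 to 22 counts, and this call was lost under 8 of 12 alternatives, among them DESeq2 (adjusted p = 0.137), no filter (0.142) and leaving out TBX2 replicate a or c or TBX5 replicate a or c (0.254, 0.175, 0.133 and 0.232). Over the 14 members chosen for values by library, no control library stood apart from the other 5 by Dixon's criterion.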

How the results depend on the processing

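Scaling moved the counts most. By library totals, which the most counted gene dominates, members called higher with TBX2 to TBX5 numbered 2, 2, 7 and 1, those called lower 0, 0, 0 and 0, and those between pairs 0 (TBX2, TBX3), 1 (TBX2, TBX4), 1 (TBX2, TBX5), 0 (TBX3, TBX4), 0 (TBX3, TBX5) and 21 (TBX4, TBX5). That scaling shifted the median of all genes by 0.01 (TBX2), -0.08 (TBX3), 0.25 (TBX4) and -0.31 (TBX5), and it reversed KDM4A (-0.0019) and KDM5B (-0.03) with TBX5. Without the filter, 7 rose with TBX2 and 11 with TBX3, and 2 and 3 differed between TBX2 and TBX4 or TBX5. With Ctl alone, 3 rose and 2 fell with TBX5, and with EV alone 2 fell with TBX4 and 1 with TBX5, from 3 control libraries in place of 6. A length offset gave 1 fall with TBX3. At an FDR of 0.05, 2 members differed between TBX2 and TBX4 and 3 between TBX2 and TBX5, as did 3 in DESeq2.

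The share of rises among the calls was 57.14% with TBX2, 43.75% without the filter and 47.06% with the GC offset and replicate block (8 higher, 9 lower), and it was 60% with TBX5 and 85.71% against EV alone. With the replicate block, calls were 11, 19, 4 and 6 higher and 9, 0, 3 and 4 lower, and of the calls described it ended SETDB2 with TBX2 (0.29, adjusted p = 0.103, as against 0.0824) and NSD2 with TBX4 (-0.16, adjusted p = 0.120).

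Leaving out 1 library at a time gave 9 to 12 higher and 7 to 10 lower with TBX2, 14 to 18 and 0 to 0 with TBX3, 3 to 5 and 1 to 5 with TBX4, 2 to 6 and 0 to 4 with TBX5, 0 to 0 for EV against Ctl, and 10 to 13, 2 to 7, 2 to 5, 6 to 14, 6 to 10 and 0 to 0 for the pairs in the order above. The lowest came without TBX2 replicate c (TBX2), TBX3 replicate b (TBX3), TBX4 replicate b (higher) or a (lower) and TBX5 replicate c. Falls with TBX4 were 2 without replicate b or c, and with TBX5 2 without replicate b. The pair of TBX3 and TBX4 gave 6 without TBX3 replicate b and 7 without TBX4 replicate a. Of single differences between pairs, KDM4D (TBX3, TBX4) was lost without TBX3 replicate b or TBX4 replicate a or b. SUV39H1 (TBX3, TBX5) was lost without TBX3 replicate a or TBX5 replicate b or c. SETDB2 was lost under 8 of 13 alternatives between TBX2 and TBX4, 4 of 13 between TBX2 and TBX5 and 2 of 13 between TBX2 and TBX3. KMT5C (TBX2, TBX5) was lost under 8 of 12. Where the cause of a change is not named, it was not tested. The fewest counts per library were those of KMT5C (4 to 22), KDM8 (6 to 34) and SMYD3 (11 to 54).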

Other observations

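Among genes that make, use or recycle cofactors of histone methyltransferases and demethylases, 3 fell in all 4 comparisons with the controls. Of 13 tested genes of S-adenosylmethionine and 2-oxoglutarate metabolism, the number that fell was 4 for TBX2, 4 for TBX3, 3 for TBX4 and 3 for TBX5, and 1 rose (IDH1 with TBX2, by 0.22 ± 0.07). Of all tested genes, 15.6%, 6.40%, 6.07% and 6.12% fell in the same comparisons. OGDH, the oxoglutarate dehydrogenase subunit that consumes 2-oxoglutarate in the citric acid cycle, fell by 0.55, 0.21, 0.29 and 0.45 on the log2 scale with TBX2 to TBX5 (SE 0.06 to 0.07, edgeR adjusted p = 1.62e-06, 0.0405, 0.00221 and 0.000183). AHCY, which clears the S-adenosylhomocysteine left by each methyl transfer, fell by 0.47, 0.32, 0.20 and 0.26 (SE 0.06 to 0.07, edgeR adjusted p = 2.68e-05, 0.00186, 0.0443 and 0.0211). GLUD1, which makes 2-oxoglutarate from glutamate, fell by 0.33, 0.26, 0.16 and 0.24 (SE 0.06 each, edgeR adjusted p = 0.00031, 0.00871, 0.0886 and 0.0223). The median of the 13 genes was -0.19, -0.16, 0.02 and -0.14, against about 0.00 for all tested genes, 1.24% of which were lower in all 4. The comparisons share their 6 control libraries.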
